A study of Mus musculus with 6 samples.

Results

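Complex I, the NADH:ubiquinone oxidoreductase, is the entry point of electrons from NADH into the mitochondrial respiratory chain. Its nuclear-encoded subunits carry the gene prefix Nduf, and the Ndufaf genes encode assembly factors, which help to build the enzyme and are not part of the finished complex. All protein-coding genes whose symbol starts with Nduf were taken, 46 of the 54532 genes in the table. They were divided by role into 36 subunits, 8 assembly factors (Ndufaf1 to Ndufaf8) and 2 further genes. The 2 further genes were Ndufa4, which was named as a complex I subunit and has since been assigned to complex IV, and its paralog Ndufa4l2.

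Messenger RNA was measured by RNA sequencing in bone marrow-derived macrophages (BMDMs), which are grown in culture from bone marrow precursors. XKO cells had the genotype Xbp1ΔMf and XWT cells the genotype Xbp1FL/FL, with 3 libraries each, and both came from C57BL/6 mice of 32 to 34 weeks. XBP1 is the transcription factor that the endoplasmic reticulum sensor IRE1 switches on during protein folding stress. Cells of both groups had LPS priming followed by 48 h in conditioned medium from WT primary hepatocytes. Both groups therefore share the priming and the medium, and a cell without either was not analysed here. The labels give neither the promoter that drives the deletion nor whether replicates were different animals or cultures. The spread that the p-values rest on is thus that between these 6 samples and may be technical in part or in whole.

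Complex I is an L-shaped enzyme. Its matrix arm takes electrons from NADH through a flavin and a chain of iron-sulfur clusters to ubiquinone, and its membrane arm pumps protons. The core subunits are conserved from bacteria and carry out catalysis, some of them encoded by mitochondrial DNA, while the accessory subunits were added in evolution and are needed for assembly and stability. In macrophages, stimulation with LPS is known to shift energy production from respiration towards glycolysis, and complex I is a source of reactive oxygen species when electrons run in reverse.

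Total counts were 28354866 to 30891729 per library. Xbp1 stood at 76.7, 79.32 and 76.49 CPM (counts scaled to the library total times its TMM factor) in XKO 1 to 3, against 158.4, 156.6 and 131.5 CPM in XWT 1 to 3. Its log2 fold change of XKO over XWT was -0.94 ± 0.077 (SE; edgeR quasi-likelihood test, adjusted p = 1.93e-06), and reads outside any deleted part are included in its count. The 8 macrophage markers summed to 25260 to 26930 CPM in XKO and 39520 to 47860 CPM in XWT. Of them 1, the lysozyme gene Lyz2, was lower (-1.13, edgeR adjusted p = 1.06e-06). Their median log2 fold change was only -0.17, and 7 of the 8 were within 1.3-fold. At an unadjusted edgeR p under 0.05, 4 of the 8 were lower, against 16.3% of all tested genes. Markers of fibroblasts and stroma summed to 58.26 to 72.51 CPM in XKO and 619.5 to 717.3 CPM in XWT, with all 8 tested markers lower and a median log2 fold change of -3.35. Neutrophil markers summed to 61.24 to 64.96 CPM in XKO and 30.8 to 39.76 CPM in XWT, with 7 of 8 tested markers higher and a median of 0.92. Over all tested genes 7.99% were called lower and 6.00% higher. Hepatocyte markers summed to 0.2925 to 0.322 CPM in XKO and 0.2967 to 0.6717 CPM in XWT, all from Apoa2, with Alb, Apoa1, Ttr, Fgb, Serpina1a and Cps1 at 0 counts in every library. Lymphocyte markers summed to 0.325 to 0.3916 CPM in XKO and 0.03709 to 0.4158 CPM in XWT. The part of the stromal and neutrophil markers in the results on complex I was not tested.

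The subunit genes differed little between the groups. Of the 36 subunits, 2 fell in XKO and 0 rose at an adjusted p under 0.05, and the other 34 did not pass. The fallen genes include Ndufa13, an accessory subunit of the membrane arm also known as GRIM-19, which fell by 0.27 on the log2 scale (edgeR adjusted p = 0.0492). Lower calls made up 5.56% of the subunits, against 7.99% of all 14333 tested genes called lower and 6.00% called higher. Libraries scaled by trimmed means (TMM) were used here, and in bulk samples fewer cells of a type and less RNA per cell cannot be told apart.

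The estimates of the subunits lay mostly just below 0. Their median log2 fold change was -0.13, with an interquartile range of -0.19 to -0.05, and 29 of 36 (80.6%) were below 0, against a median of 0 and 49.8% below 0 over all tested genes. Scaling by library size alone moved the median of all genes by 0.07, and the subunits then had a median of -0.06. Of the 36 estimates 35 were within 1.3-fold, and the 95% interval lay inside 1.5-fold for 32 of them. Standard errors were 0.067 to 0.318, with a median of 0.091. At an unadjusted edgeR p under 0.05, 9 subunits (25%) were lower, against 16.3% of all tested genes, and 0 were higher, against 14.5%. DESeq2 called the same 2 subunits lower and 0 higher. The XKO and XWT libraries did not overlap, with XKO lower, for 11 subunits (30.6%, against 18.6% of all tested genes). For 0 subunits did they separate with XKO higher, against 17.5% of all tested genes.

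**Figure D1:**
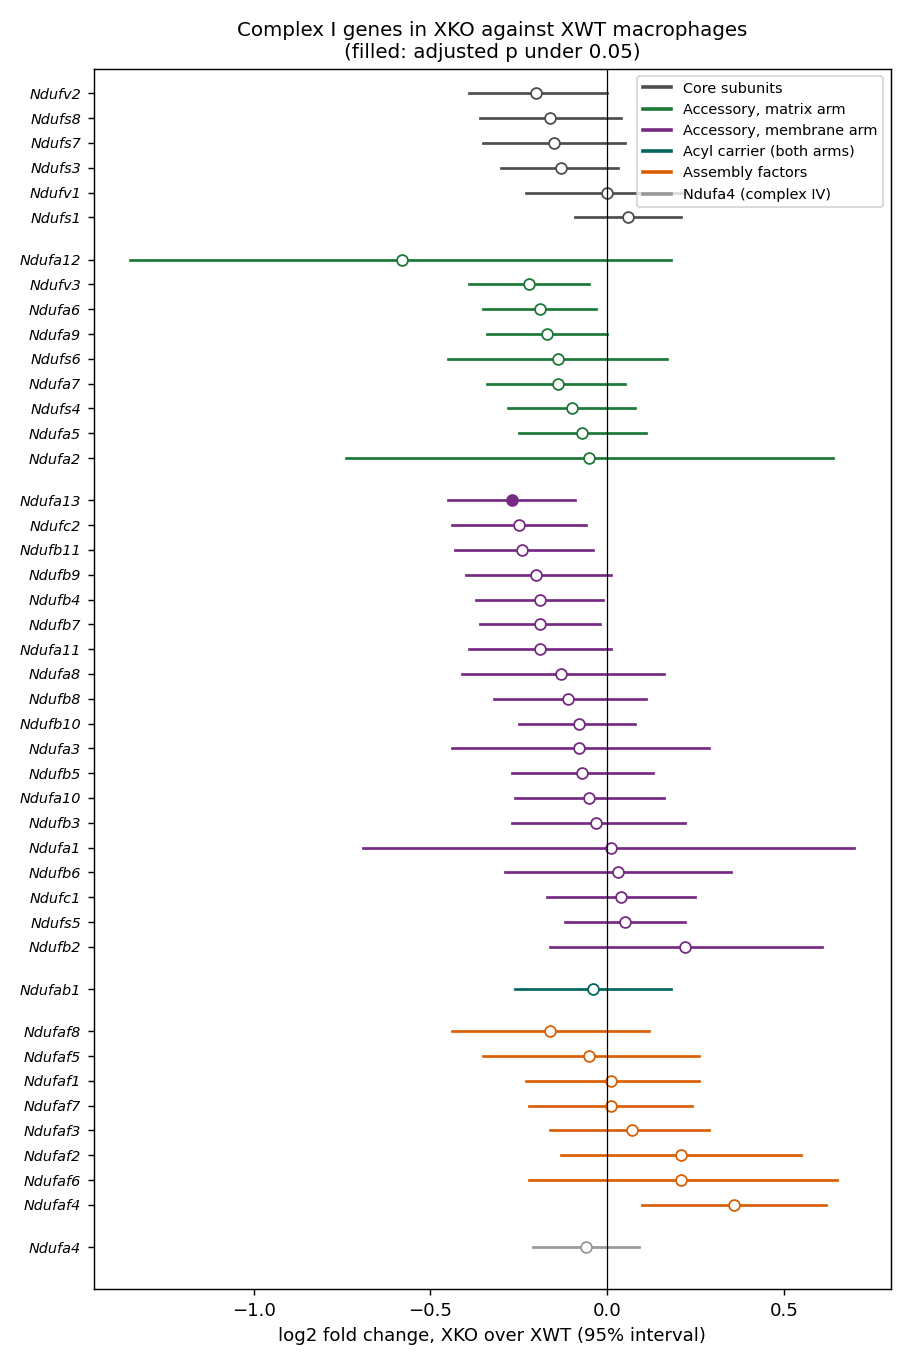
Log2 fold change of XKO over XWT with its 95% interval for 44 genes, ordered within each class, with filled markers for an adjusted p under 0.05. Of these, 43 are complex I subunits or assembly factors, and the other is Ndufa4 of complex IV. Most subunit estimates lie between -0.25 and 0.06, and the widest interval belongs to Ndufa12 at -1.35 to 0.18.

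The core subunits hold the flavin, the iron-sulfur clusters and the quinone site, and their median log2 fold change was -0.15, or -0.04 without XWT 2. Ndufs3, which lies near the quinone site in the matrix arm, had groups that did not overlap, at 38.99, 38.44 and 38.28 CPM in XKO and 40.65, 46.15 and 40.08 CPM in XWT (edgeR adjusted p = 0.252). Ndufv1, which binds NADH and the flavin, averaged 60.36 ± 3.10 CPM in XKO and 60.28 ± 10.2 CPM in XWT (SD, n = 3 each). Ndufs1, the largest core subunit of the matrix arm, averaged 69.95 ± 2.45 CPM in XKO and 67.23 ± 4.11 CPM in XWT. Ndufv2, which carries an iron-sulfur cluster beside the flavin, had an estimate of -0.20 (adjusted p = 0.162, edgeR), Ndufs8 one of -0.16 (0.255) and Ndufs7 one of -0.15 (0.285).

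Of the 9 accessory subunits of the matrix arm 0 passed in edgeR or DESeq2. At an unadjusted edgeR p under 0.05, 3 were lower and 0 higher, against 16.3% and 14.5% of all tested genes. All 9 estimates were below 0, against 49.8% of all tested genes. Their median log2 fold change was -0.14, which was -0.09 without XWT 2 and -0.21 without XWT 1 or XWT 3. Ndufv3, a small subunit beside the NADH-binding site, had the smallest p of them, at 35.84, 35.19 and 35.99 CPM in XKO and 37.87, 45.38 and 41.26 CPM in XWT (log2 fold change -0.22, edgeR adjusted p = 0.0805). Its groups did not overlap, and it passed when XWT 1 was left out (-0.28, edgeR adjusted p = 0.0331). Ndufs4, whose loss causes complex I deficiency in mice and humans, averaged 25.14 ± 0.392 CPM in XKO and 27.02 ± 2.40 CPM in XWT (SD, n = 3 each; edgeR adjusted p = 0.436). Ndufa6, which binds the acyl carrier protein, was at 48.36, 42.76 and 45.06 CPM in XKO and 50.03, 54.60 and 50.57 CPM in XWT (-0.19, edgeR adjusted p = 0.103). Ndufa9, near the junction of the arms, was at 45.24, 44.75 and 44.25 CPM in XKO and 48.14, 56.38 and 46.77 CPM in XWT (-0.17, edgeR adjusted p = 0.16). Ndufs4, Ndufa6 and Ndufa9 had groups that did not overlap, with XKO lower, as had 18.6% of all tested genes. Ndufa5, Ndufa7 and Ndufs6 overlapped, with estimates of -0.07, -0.14 and -0.14.

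Ndufa12 had the lowest estimate of all members and the least certain one. Its levels were 8.919, 8.871 and 9.692 CPM in XKO 1 to 3, against 11.39, 21.01 and 8.764 CPM in XWT 1 to 3. XWT 2 was far above the other two XWT libraries, and XWT 3 was below all 3 XKO libraries. The log2 fold change was -0.58 ± 0.318 (SE; 95% interval -1.35 to 0.18; edgeR adjusted p = 0.271). Without XWT 3 it was -0.83 (edgeR adjusted p = 0.021) and without XWT 2 it was -0.13 (edgeR adjusted p = 0.574). Ndufaf2, the assembly factor related to Ndufa12, is given with the assembly factors.

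Of the 19 accessory subunits of the membrane arm 1 fell, against 7.99% of all tested genes. The median log2 fold change was -0.08, which was 0 without XWT 2 and -0.21 without XWT 1. Ndufa13 (ENSMUSG00000036199, chromosome 8 from 69894180 to 69902558, minus strand) stood at 55.74, 49.33 and 51.75 CPM in XKO 1 to 3, against 61.16, 70.12 and 57.32 CPM in XWT 1 to 3. Each XKO library was below each XWT library, with the highest XKO value near the lowest XWT value. The log2 fold change was -0.27 ± 0.083 (SE; edgeR adjusted p = 0.0492). The adjusted p ran from 0.074 to 0.22 when XWT 1, XWT 2 or any 1 XKO library was left out, and was 0.00996 without XWT 3. With length and GC trends removed the estimate was -0.14 (adjusted p = 0.237), with library size alone -0.20 (0.126), and with a filter of at least 1 CPM in 3 libraries -0.26 (0.0559). Tssk6 on the opposite strand shares 30.0% of the exon bases of Ndufa13 and was at 1.742 CPM in XKO and 1.288 CPM in XWT.

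**Figure D2:**
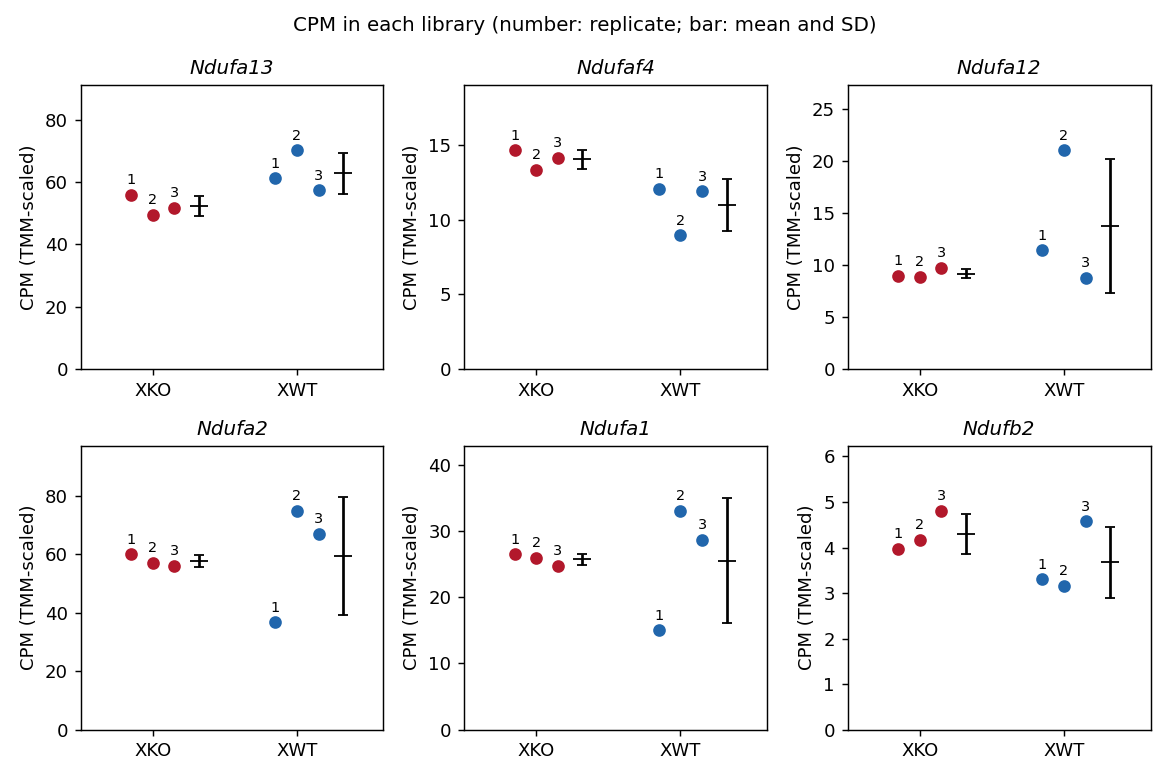
CPM in each library of the members described for their call, estimate, level or spread (6 genes), with the mean and SD of each group. In Ndufa13 the 3 XKO values lie below the 3 XWT values, whereas in Ndufa12 the XWT values run from 8.764 to 21.01 CPM.

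The remaining 18 membrane-arm subunits had estimates of -0.25 to 0.22 and none passed. The lowest estimates among them were those of Ndufc2 (-0.25, edgeR adjusted p = 0.0754) and Ndufb11 (-0.24, edgeR adjusted p = 0.0916), a subunit encoded on the X chromosome. Ndufc2 was at 32.62, 32.33 and 34.69 CPM in XKO and 39.13, 44.33 and 35.09 CPM in XWT, and Ndufb11 at 48.88, 45.07 and 45.13 CPM in XKO and 50.78, 62.71 and 50.28 CPM in XWT. Both had groups that did not overlap, as had Ndufb4 at 29.66, 29.99 and 29.40 CPM in XKO and 33.12, 37.80 and 30.68 CPM in XWT, and Ndufb7 at 47.08, 48.74 and 45.19 CPM in XKO and 50.74, 59.38 and 50.80 CPM in XWT. The other membrane-arm subunits overlapped, while 18.6% of all tested genes separated with XKO lower. Ndufa10, a large subunit related to nucleoside kinases, was at 77.28, 77.70 and 78.90 CPM in XKO and 94.88, 79.71 and 68.39 CPM in XWT, so that the XKO values lay inside the XWT range. Ndufs5 and Ndufc1 had estimates of 0.05 and 0.04, the highest of this arm after Ndufb2. Ndufb2 had the highest estimate of the subunits, 0.22 ± 0.18 (SE; edgeR adjusted p = 0.43), at 3.96, 4.159 and 4.797 CPM in XKO and 3.301, 3.164 and 4.574 CPM in XWT, with overlapping groups. Ndufab1, the mitochondrial acyl carrier protein, sits in both arms and averaged 28.86 ± 2.43 CPM in XKO and 29.70 ± 4.0 CPM in XWT (SD, n = 3 each). Its near-copy Ndufab1-ps took 3.549 CPM in XKO and 4.88 CPM in XWT, so reads could be split between them. Ndufb1-ps, listed with another biotype and so not a member, was at 39.08 CPM in XKO and 38.15 CPM in XWT, with a log2 fold change of 0.04 (edgeR adjusted p = 0.819).

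The assembly factors had estimates around 0, and 0 of 8 passed in either direction in edgeR or DESeq2. At an unadjusted edgeR p under 0.05, 1 of the 8 was higher, against 14.5% of all tested genes. Their median log2 fold change was 0.04, and 6 of 8 estimates were above 0, while 49.8% of all tested genes were below 0. Ndufaf4 (ENSMUSG00000028261, chromosome 4 from 24898083 to 24905001, plus strand), which acts with Ndufaf3 in building the quinone module, had the smallest p. It was at 14.65, 13.36 and 14.13 CPM in XKO 1 to 3, against 12.09, 8.954 and 11.90 CPM in XWT 1 to 3. Ndufaf4 was the only 1 of the 8 whose groups did not overlap, while 17.5% of all tested genes separated with XKO higher. The log2 fold change was 0.36 ± 0.121 (SE; 95% interval 0.10 to 0.62; edgeR adjusted p = 0.0668). Leaving out XWT 3 gave 0.42 (edgeR adjusted p = 0.0346), leaving out XWT 2 gave 0.23 (edgeR adjusted p = 0.172), and removing trends with length and GC content gave 0.14 (adjusted p = 0.353).

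Ndufaf3, its partner, averaged 15.42 ± 0.143 CPM in XKO and 14.73 ± 1.93 CPM in XWT (SD, n = 3 each; edgeR adjusted p = 0.708). Ndufaf1, a part of the complex that assembles the membrane arm, averaged 11.34 ± 0.675 CPM in XKO and 11.24 ± 1.38 CPM in XWT, and Ndufaf7, a methyltransferase, averaged 9.453 ± 0.407 CPM in XKO and 9.384 ± 0.197 CPM in XWT. Ndufaf2, Ndufaf5 (which hydroxylates Ndufs7), Ndufaf6 and Ndufaf8 (a partner of Ndufaf5) had estimates of 0.21, -0.05, 0.21 and -0.16, with edgeR adjusted p of 0.386 to 0.859. Of the exon bases of Ndufaf2, 65.6% are shared with a long noncoding RNA on the opposite strand that had 0 counts in all 6 libraries. Ndufa4 averaged 80.39 ± 1.40 CPM in XKO and 83.93 ± 5.96 CPM in XWT (edgeR adjusted p = 0.576). Ndufa4l2, a gene known to be induced by hypoxia, had 0 counts in all 6 libraries, which allows up to 0.0979 CPM in an XKO library and 0.111 CPM in an XWT library, a limit that covers counting error only.

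Promoter sequences of the members were looked up in RefSeq, build GRCm38.p6, as the 250 bases before and 50 bases after a start. A promoter was found for 40 members in 42 windows. Both strands were searched for CGCNTGCGC (nuclear respiratory factor 1), CCGGAAG (ETS factors), AAGATGGCG (YY1), TCAAGGTCA (estrogen-related receptors), CCAAT and TGACGTGG, the core of an unfolded protein response element. The NRF1 letters were in 9 of 34 subunit windows (26.5%) and 2 of 7 assembly factor windows, against 6.25% of all 32841 windows. By gene this was 8 of 32 subunits, since overlapping windows of Ndufa5 hold the same match. The YY1 letters were in 5 subunit windows (14.7%) against 1.4% of all, the ETS letters in 4 (11.8%) against 8.86%, and CCAAT in 10 (29.4%) against 37.4%. In the 7 assembly factor windows these letters were in 1, 2 and 4. The estrogen-related receptor and unfolded protein response letters were in 0 of the 42 windows, against 0.423% and 0.676% of all, which says only that these letters are not in these windows. A match is a run of letters and not a shown binding site. The windows below are of Ndufa13, which fell, of Ndufaf4, the assembly factor with the smallest p, and of Ndufs6. Ndufs6 is one of the subunits with a wide XWT spread but does not stand for them. Of those, Ndufa1, Ndufa3 and Ndufa12 had none of the motifs, Ndufa8 had only the NRF1 motif and Ndufb6 only the ETS motif. A link between motifs and spread was not tested. Capitals mark the motif letters found on either strand. These are CCAAT in Ndufa13, the NRF1 motif in Ndufaf4, and a CCAAT match, the NRF1 motif and the YY1 motif in Ndufs6. The regions are chr8:69901971-69902270 (minus strand), chr4:24897833-24898132 (plus strand) and chr13:73328433-73328732 (minus strand). The Ndufa13 window rests on a RefSeq start inside the deposited gene and does not reach the deposited start at 69902558.
Ndufa13: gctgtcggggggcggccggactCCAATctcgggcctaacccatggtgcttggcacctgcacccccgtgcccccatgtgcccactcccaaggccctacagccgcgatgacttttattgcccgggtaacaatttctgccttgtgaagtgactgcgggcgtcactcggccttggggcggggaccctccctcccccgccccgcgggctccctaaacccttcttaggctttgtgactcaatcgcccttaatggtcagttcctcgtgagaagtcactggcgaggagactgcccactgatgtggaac
Ndufaf4: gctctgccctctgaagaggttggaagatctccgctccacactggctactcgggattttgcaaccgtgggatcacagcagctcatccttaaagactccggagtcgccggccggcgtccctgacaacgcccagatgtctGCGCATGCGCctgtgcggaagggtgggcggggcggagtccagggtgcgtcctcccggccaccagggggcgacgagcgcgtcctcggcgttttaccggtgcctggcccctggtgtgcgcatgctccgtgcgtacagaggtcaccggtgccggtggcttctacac
Ndufs6: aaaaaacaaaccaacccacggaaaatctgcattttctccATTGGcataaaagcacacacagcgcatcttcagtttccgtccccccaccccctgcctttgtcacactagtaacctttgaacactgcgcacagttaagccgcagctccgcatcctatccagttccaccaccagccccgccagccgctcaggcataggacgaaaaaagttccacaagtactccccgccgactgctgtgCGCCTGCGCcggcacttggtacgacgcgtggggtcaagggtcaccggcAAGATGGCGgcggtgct

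Levels between genes were compared per kilobase of the longest principal transcript, since the deposited FPKM use the combined length of all exons of a gene. On this scale the 36 subunits ran from 0.985 to 101 CPM per kilobase in XKO, with a median of 36.6, and from 0.842 to 104 in XWT, with a median of 40.05. The 8 assembly factors ran from 3.68 to 12.7 CPM per kilobase in XKO, with a median of 6.67, and from 3.02 to 14.1 in XWT, with a median of 6.54. Ndufa12 and Ndufab1 lay in the range of the assembly factors, and Ndufb2 lay below it. These places depend on the length used, which was 3479 bases for Ndufab1 and 4371 for Ndufb2. Before division by length Ndufab1 averaged 28.86 CPM in XKO, above Ndufaf3, the highest assembly factor, at 15.42 CPM. Ndufa2 was the highest subunit by FPKM, at 104.3, 99.15 and 97.16 FPKM in XKO 1 to 3 and 64.11, 131 and 116.3 FPKM in XWT 1 to 3. Ndufb2 was the lowest subunit by FPKM, at 0.7007, 0.7354 and 0.8479 FPKM in XKO and 0.587, 0.564 and 0.8065 FPKM in XWT. Gm42420, a protein-coding gene on the same strand, shares 2.6% of the exon bases of Ndufb2 and had 0 counts in every library. Ndufb8 (4.3%) and Ndufb9 (19.5%) also share exon bases with a same-strand gene at 0 counts. Whether reads of these subunits went uncounted was not tested.

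**Figure D3:**
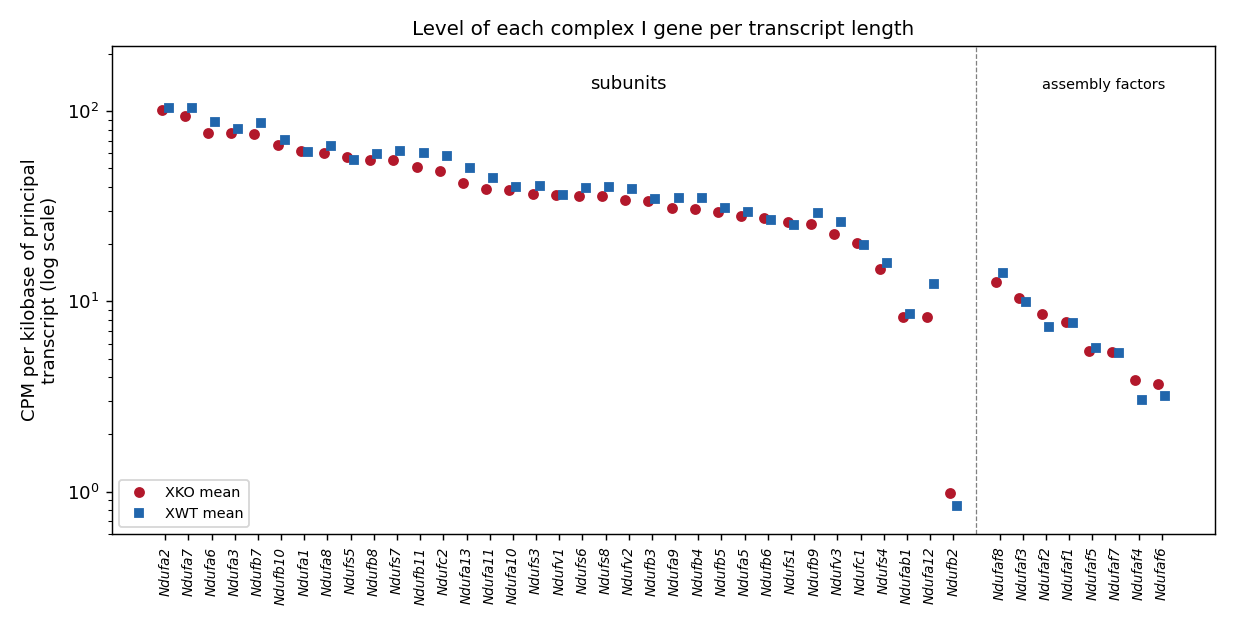
Mean CPM per kilobase of the longest principal transcript for 43 members in XKO and XWT, on a log axis, with subunits and assembly factors side by side. The assembly factors lie between 3.02 and 14.1, below nearly all subunits.

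The XWT libraries differed from one another more than the XKO libraries did, and XWT 2 was the highest XWT library for most subunits. For each subunit the highest over the lowest library had a median of 1.07 in XKO and 1.26 in XWT, against 1.07 in XKO and 1.18 in XWT over 10133 genes. These genes had a mean over all libraries of at least 4.306 CPM, the lowest XKO mean of a subunit. XWT 2 was the highest XWT library for 29 of 36 subunits, against 35.1% of those genes, and XWT 1 or XWT 3 was the lowest for 17 subunits each. The summed CPM of the subunits were 1466, 1442 and 1452 in XKO 1 to 3, against 1487, 1758 and 1515 in XWT 1 to 3. For the 7 subunits that varied over 1.5-fold within XWT, from Ndufa8 at 1.55 to Ndufa12 at 2.40, no such spread was seen in XKO, and 5.68% of the 10133 genes varied as much within XWT. Those 7 were Ndufa1, Ndufa2, Ndufa3, Ndufa8, Ndufa12, Ndufb6 and Ndufs6.

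Of the XWT libraries, XWT 2 was the highest and XWT 1 the lowest for each of the 7 but Ndufa12, which was lowest in XWT 3. Ndufa1 was at 26.47, 25.93 and 24.73 CPM in XKO and 14.98, 32.99 and 28.63 CPM in XWT, and Ndufa2 at 59.92, 57.00 and 55.87 CPM in XKO and 36.65, 74.70 and 67.04 CPM in XWT (log2 fold change 0.01 for Ndufa1 and -0.05 for Ndufa2). With XWT 1 to 3 set against the mean of XKO, the median log2 ratio of the subunits was 0.08, 0.28 and 0.06. Subunits with a principal transcript under 1000 bases had medians of -0.04, 0.31 and 0.1 in XWT 1 to 3, and XWT 2 was the highest for 19 of those 20. Protein-coding genes with a mean of at least 4.306 CPM over all libraries were taken for comparison. This cut is the lowest XKO mean of a subunit, that of Ndufb2, whose XWT mean of 3.68 CPM puts it under the cut. The 527 of them with such short transcripts, the 20 subunits included, had medians of 0.06, 0.22 and 0.04, with XWT 2 highest for 60%. The longer ones had medians of 0.01, 0.01 and -0.01, with XWT 2 highest for 33.9%. Transcript length and the log2 fold change of XKO over XWT correlated little across the 36 subunits (Pearson 0.22, Spearman 0.06, a description across genes that share the 6 libraries). The deposited gene length, which is another measure of length, correlated with the log2 ratio of XWT 1 to XWT 2 across the same subunits (Pearson 0.61, Spearman 0.57, also a description). Because the lengths differ, these coefficients cannot be ranked against the former ones.

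Leaving out XWT 2 left 0 subunits called in edgeR (3 lower at an unadjusted p under 0.05), 23 of 36 estimates below 0 (63.9%, against 49.4% of all genes) and a median of -0.05. Leaving out XWT 1 gave 5 subunits called lower, against 6.61% of all genes, and a median of -0.20. Leaving out XWT 3 gave 11 called lower, against 14.8% of all genes, and a median of -0.15. After leaving out XKO 1, XKO 2 or XKO 3, edgeR called 0 subunits, with 6, 3 and 5 lower at an unadjusted p under 0.05. The sums of the 8 assembly factors, 73.83, 77.28 and 78.03 CPM in XKO and 72.73, 74.12 and 70.5 CPM in XWT, did not single out XWT 2.

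**Figure D4:**
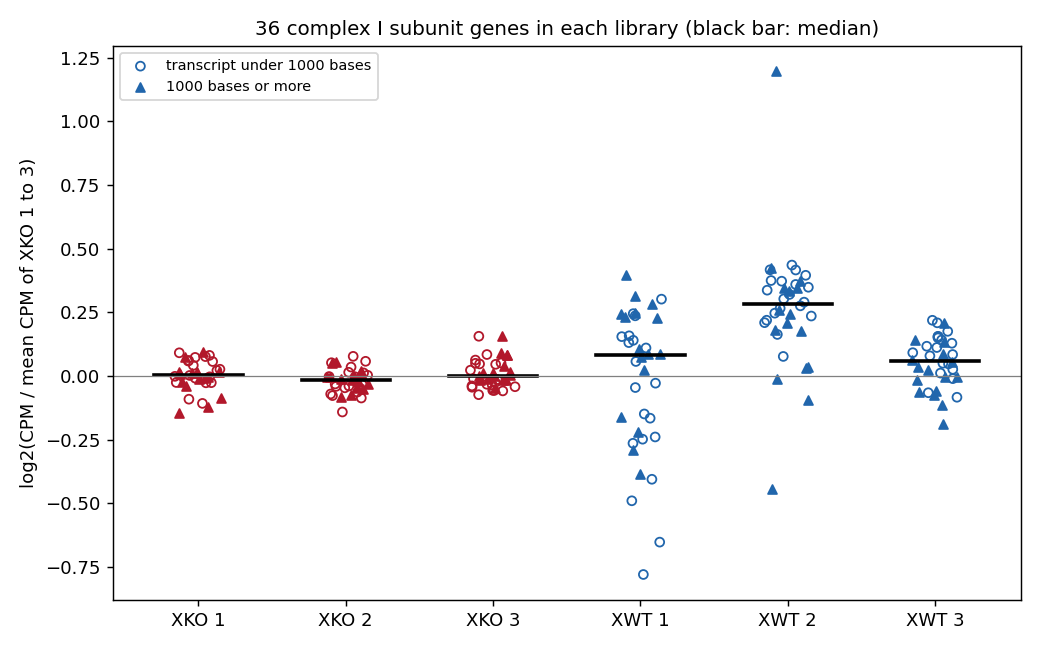
Log2 ratio of each of the 36 subunit genes in each library to the mean of XKO 1 to 3, with a bar at the median. The median is 0.28 in XWT 2 and between -0.01 and 0.08 in the other 5 libraries.

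The subunits encoded by mitochondrial DNA were compared with the nuclear ones. Of the 7 genes mt-Nd1 to mt-Nd6 and mt-Nd4l, 0 passed in edgeR or DESeq2. At an unadjusted edgeR p under 0.05, 1 was higher, against 14.5% of all tested genes. The median log2 fold change was 0.15, and the median was -0.33 when trends with length and GC content were removed. It was 0.02 without XWT 2 and 0.28 without XWT 1, where 1 gene was called higher. The smallest p was that of mt-Nd6 (log2 fold change 0.22, edgeR adjusted p = 0.139). Summed levels were 4728, 4707 and 4945 CPM in XKO 1 to 3, against 5259, 3446 and 4323 CPM in XWT 1 to 3. XWT 2, where the nuclear subunits were high, was the lowest library for the mitochondrial sum.

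Other genes with a role in assembly or in the respiratory chain were examined with the same fit. In this fit 7.99% of all tested genes were called lower. Of 11 other complex I assembly genes, 1 was lower (Dmac1, -0.30, edgeR adjusted p = 0.044) and the median was -0.02. Dmac1, a factor of membrane-arm assembly, was at 29.72, 30.09 and 30.15 CPM in XKO and 33.83, 42.65 and 34.35 CPM in XWT, and its adjusted p was 0.112 without XWT 2, 0.138 to 0.149 without any 1 XKO library, 0.114 with library size alone and 0.0506 with the filter of at least 1 CPM in 3 libraries (edgeR). Of the genes of complexes II, III and V 0 of 8, 0 of 15 and 0 of 20 passed, with medians of -0.06, -0.10 and -0.06. Without XWT 2 the median of complex III was -0.01. Without XWT 3 the fit called 2, 2 and 7 genes lower, against 14.8% of all genes. It also called 1 complex III gene higher, against 2073 of all 14636 tested genes. At an unadjusted edgeR p under 0.05 there were 1 lower gene in complex II, 2 lower and 1 higher in complex III and 4 lower in complex V. Over all tested genes 16.3% were lower and 14.5% higher at that threshold. DESeq2 called 0, 0 and 1 lower, against 4.83% of all genes. The smallest p belonged to Sdhc, a membrane anchor (-0.17, edgeR adjusted p = 0.158), Uqcc2, an assembly factor (-0.26, edgeR adjusted p = 0.0562), and Atp5j2, an ATP synthase subunit (-0.24, edgeR adjusted p = 0.0566). Of 28 complex IV genes 1 was lower, Cox4i1, at 272.7, 275.2 and 271.2 CPM in XKO and 332.3, 348.9 and 288.6 CPM in XWT (-0.24, edgeR adjusted p = 0.0441), and the median was -0.03. Cox4i1 was not called without XWT 1 (adjusted p = 0.0955), XWT 2 (0.115) or any 1 XKO library (0.156 to 0.163) in the edgeR fits, nor with library size alone (0.0861), the length trend removed (0.0523) or length and GC trends removed (0.0977). Scaling by library size alone turned the medians of the other assembly genes to 0.05, of complex IV to 0.03 and of complex V to 0.01, and without XWT 2 the first and the second of these were 0.03.

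Of 14 tested regulators of mitochondrial biogenesis and respiration, 4 rose and 0 fell, against 6.00% of all tested genes called higher, with a median log2 fold change of 0.09. DESeq2 called 3 of them higher, upper quartile scaling 2, and leaving out XWT 1 gave 3 higher and 1 lower. Hif1a, the hypoxia-inducible subunit that restrains respiration, was at 137.5, 142.4 and 145.8 CPM in XKO and 118.4, 89.07 and 111.6 CPM in XWT (0.42 ± 0.091, SE; edgeR adjusted p = 0.00885). Pprc1, a coactivator of nuclear respiratory factors, rose by 0.24 (edgeR adjusted p = 0.0325), and Sirt1, a deacetylase, by 0.34 (edgeR adjusted p = 0.042), both with separate groups, and the fourth was Myc. With length and GC trends removed Sirt1 was at 0.21 (adjusted p = 0.0977) and Hif1a at 0.26 (adjusted p = 0.0139), while Pprc1 was at 0.39 (adjusted p = 0.0016), and Myc was not called in DESeq2 (adjusted p = 0.0675). Leaving out XKO 3 left 0 of the 4 called and gave Hif1a an edgeR adjusted p of 0.0568. Leaving out XKO 1, XKO 2 or XWT 2 left 1 of the list called.

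**Figure D5:**
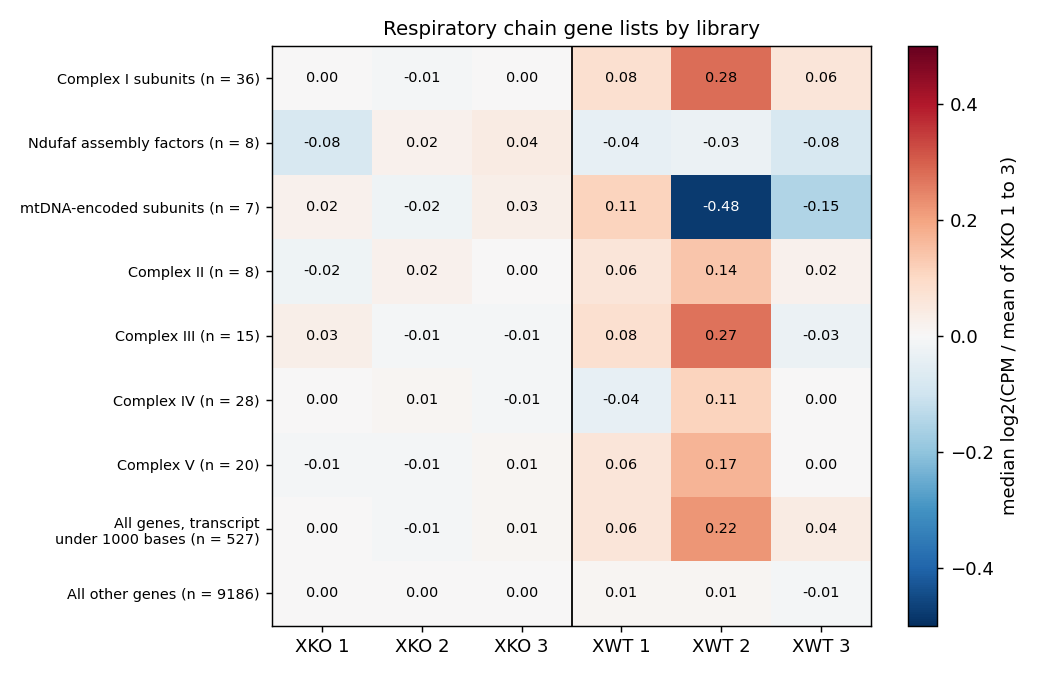
Median log2 ratio of each respiratory chain list in each library to the mean of XKO 1 to 3. In XWT 2 the complex I subunits are at 0.28 and complex III at 0.27, while the subunits from mitochondrial DNA are at -0.48.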

How the data were processed

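RNA of 6 BMDM samples was taken with Trizol and libraries were made from 1 ug of total RNA with the NEBNext Ultra kit, per the labels' protocols. Counts of reads per gene were deposited by the authors as whole numbers in 1 table. The authors also deposited FPKM per gene, scaled group means (a signal) and, for XKO over XWT, a log2 fold change with its p-value raw and adjusted, per the file headers. Bowtie 0.12.2, mm8 and mm10 are named in the submitters' processing notes without a role. The counting program, its annotation and any use of strand were not given in the sources used here, and overlapping genes may share reads.

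Counts were tested with edgeR 4.0.16 in R 4.3.3, with genes kept by filterByExpr (14333 of 54532; 29101 had no count), TMM scaling and a robust quasi-likelihood fit of group with 4 residual degrees of freedom. Adjustment was by Benjamini-Hochberg across every tested gene, and calls needed an adjusted p under 0.05. CPM are TMM-scaled. SE is the log2 fold change over the square root of F. Depth was 28354866 to 30891729 counts, and the common biological coefficient of variation was 0.0865. Gene lengths, GC content and overlaps came from GENCODE M21 and promoters from RefSeq (GRCm38.p6). Coordinates are those of the deposited table, and for Ndufa13 and Ndufaf4 they are the same in GENCODE M21 (GRCm38). The fit was tested on simulated data.

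The members, lists and motif letters were chosen with earlier results of these data known. Per-sample values are given for each called member, the highest and lowest estimates and the highest and lowest subunit by FPKM; each other list gives up to 3 called genes, or 1 with the smallest p. Results of 1 gene that this rule names are not reported here, while counts and medians include it. Groups held 3 libraries. Alternatives were other scaling, filters, DESeq2 1.42.0, limma-voom 3.58.1 with and without quality weights, a replicate block, length and GC trends, leaving out each library, and, added after the data were seen, the authors' deposited table.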

Additional observations from a re-analysis of the deposited data

How the results depend on the processing

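The count of subunits lower in XKO, 2 as reported, was 0 with library size alone, 1 with at least 1 CPM in 3 libraries, 4 with no filter on low counts and 4 with limma-voom with quality weights, and 0 to 11 when 1 library was left out. Subunits higher in XKO were 0, and assembly factors lower in XKO were 0, under every alternative run, leave-one-out fits included. Assembly factors higher in XKO, 0 as reported, were 1 with no filter, 1 with the gene length trend removed and 0 to 1 when 1 library was left out. Over all genes, 860 higher and 1145 lower became 1424 higher and 1037 lower with length and GC trends removed, and 1158 higher and 749 lower with library size alone, and leaving out 1 library gave 274 to 2073 higher and 532 to 2164 lower. With the replicate block 2 subunits were lower and 1 assembly factor was higher (Ndufaf4, edgeR adjusted p = 0.0398). The same-number correlations, across genes on deviations from the group mean, were -0.08, -0.03 and -0.05. With 3 libraries a group, such values cannot show whether samples of the same number share an animal, culture or batch. The authors' deposited table, an alternative chosen after seeing the data, and DESeq2 called 2 subunits lower, Ndufa13 among them, as reported. The causes of these differences were not tested. The 3 libraries a group limit the precision, and a shift of 0.1 on the log2 scale is close to the median standard error of 0.091.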
